A study of Mus musculus with 8 samples.

Results

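The Notch components described here are 10 genes that encode the receptors *Notch1*, *Notch2* and *Notch3*, the ligands *Dll1*, *Dll4*, *Jag1* and *Jag2*, the glycosyltransferase *Lfng*, the DNA-binding effector *Rbpj* and the ubiquitin ligase *Mib1*. They were taken by gene symbol from the 25485 genes of the normalised table and joined by Ensembl identifier to the 53801 genes of the count table. Messenger RNA had been sequenced from Lgr5-GFP+ intestinal stem cells, sorted from adult mice as a small pool of cells per mouse, with 4 mice of the genotype β-catGOF; Mll1-/- and 4 of the genotype β-catGOF; Mll1+/-. The comparison asks what complete loss of the histone methyltransferase Mll1 does in these stem cells. All 8 mice carried the β-catGOF mutation, in which deletion of the third exon leaves a stabilised β-catenin, and the β-catGOF; Mll1+/- controls had lost 1 copy of Mll1, so no library stands for unmutated stem cells. Both deletions were made by the tamoxifen-inducible Cre of the Lgr5-EGFP-IRES-CreERT2 allele, which acts in cells that express Lgr5. Tamoxifen was given at 50 mg/kg on 3 days to mice of 4 to 6 weeks, and cells were taken at day 10 after induction. Antibodies to EpCAM, CD45 and CD24 were used in the sort. The libraries are named by the mouse numbers of the labels, J_7075, J_7096, J_7135 and J_7136 for β-catGOF; Mll1-/- and J_7079, J_7100, J_7134 and J_7139 for β-catGOF; Mll1+/-.

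Notch signalling passes between touching cells. A Delta or Jagged ligand on one cell binds a Notch receptor on its neighbour, the receptor is cut by an ADAM protease and then by γ-secretase, and its intracellular domain enters the nucleus, where it joins Rbpj and Mastermind proteins at target genes such as *Hes1*. In the intestinal crypt, Notch-active cells remain stem or absorptive cells and keep *Atoh1* off, while their ligand-bearing neighbours turn *Atoh1* on and become secretory cells.

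Depth lay between 14468751 and 16847793 counts on genes per library, and 3 counts corresponded to 0.162 to 0.241 CPM, in which a count is divided by the library total after TMM scaling, a floor that covers counting error only. The summed level of 7 stem cell markers, *Lgr5* and *Ascl2* among them, was 1190 to 1373 CPM in the β-catGOF; Mll1-/- libraries and 1146 to 1354 CPM in the others, and 7 of 7 were detected. Mitochondrial transcripts took 17.1 to 27.1% of the counts in β-catGOF; Mll1-/- and 23.3 to 30.1% in β-catGOF; Mll1+/-. *Kmt2a*, which encodes Mll1, was at 53.5 to 78.5 CPM in the 4 libraries labelled β-catGOF; Mll1-/- and at 48.9 to 64.9 CPM in the 4 labelled β-catGOF; Mll1+/-, a log2 fold change of 0.24 with a standard error of 0.17 (adjusted p = 0.710, edgeR). The whole-gene count of the deleted gene was therefore not lower under the label Mll1-/-, and every direction below is a direction between labels. Mouse J_7135 stood apart, its closest library being at a Spearman correlation of 0.883 across genes, whereas the other 7 each had a neighbour at 0.911 or above, and it held both *Xist* (3838 counts) and Y-linked transcripts (1839 counts of *Eif2s3y*), whereas each of the other 7 had at most 49 counts of *Xist* or at most 1 of *Eif2s3y*. Results that rest on it are therefore given with and without it. By the library numbers in the header, J_7075, J_7079, J_7096 and J_7100 form a first run of consecutive libraries and the remaining 4 a second run, with 2 mice of each genotype in each. A run here means consecutive numbers only, and the labels do not say whether the runs were prepared or sequenced apart. *Xist* exceeded the Y-linked transcripts in 0 of 2 β-catGOF; Mll1-/- and 2 of 2 β-catGOF; Mll1+/- mice of the first run, so within that run the genotype and the sex transcripts cannot be told apart. In the second run, *Xist* exceeded them in both β-catGOF; Mll1-/- mice, J_7135 and J_7136, and in the control J_7139, but not in the control J_7134.

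No difference between the genotypes passed the test in any of the 10 genes. All 10 passed the filter on low counts, and 0 of them reached an adjusted p under 0.1 in edgeR's quasi-likelihood test, against 0.0851% of the 16445 genes tested. DESeq2 and limma-voom also called 0 of the 10, against 2.47% and 0.626% of all genes. An unadjusted p under 0.05 was reached by 1 of them in edgeR, *Mib1*, which was lower in β-catGOF; Mll1-/-, where 9.15% of all genes reached this level, 3.75% as lower and 5.4% as higher. In 0 of the 10 did the 4 libraries of one genotype lie apart from the 4 of the other, against 6.28% of all genes. The log2 fold changes were above 0 in 4 genes and below 0 in 6, with a median of -0.17, while 50.8% of all genes were above 0 and their median was 0.01. The smallest adjusted p among the 10 was 0.540 (edgeR).

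**Figure D1:**
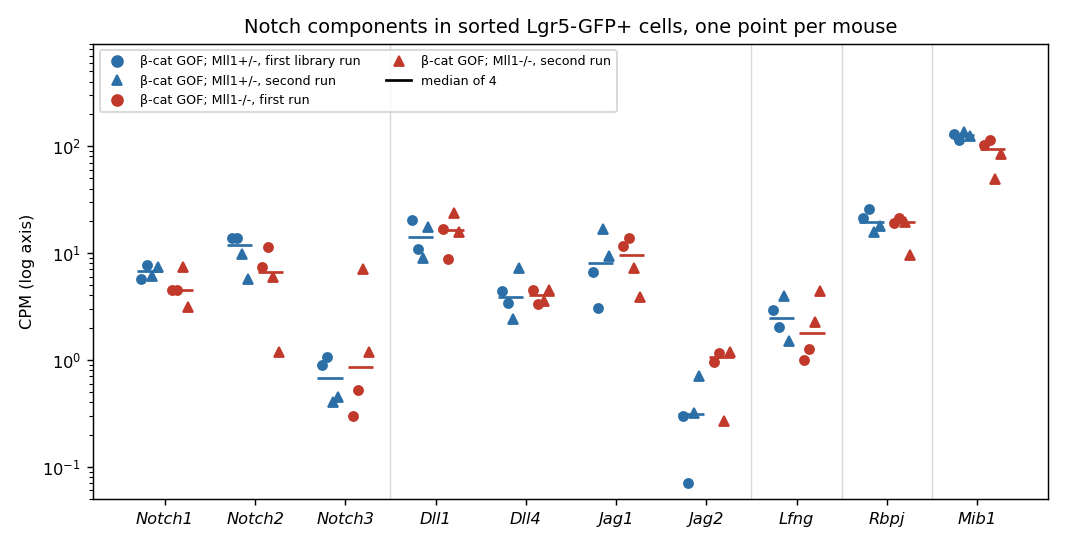
CPM of the 10 Notch components on a log axis, with 1 point per mouse, circles for the first and triangles for the second library run, blue for β-catGOF; Mll1+/-, red for β-catGOF; Mll1-/- and a bar at the median of 4. The genotypes overlap in every gene, and the red triangle of *Notch3* at 7.09 CPM is mouse J_7135.

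Among the receptors, *Notch1* (ENSMUSG00000026923, GRCm38 chr2:26457903-26516663, minus strand), the receptor best known for holding crypt cells out of the secretory fate, was low in both genotypes. In β-catGOF; Mll1-/-, *Notch1* was at 4.54 CPM in J_7075, 4.46 in J_7096, 7.36 in J_7135 and 3.15 in J_7136. In β-catGOF; Mll1+/-, it was at 5.68 CPM in J_7079, 7.73 in J_7100, 6.10 in J_7134 and 7.36 in J_7139. Only J_7135 of the first group reached the levels of the second group, in which all 4 libraries lay above the other 3 of the first. The log2 fold change was -0.46 with a standard error of 0.32 (95% interval -1.18 to 0.26, adjusted p = 0.715, edgeR), and the runs gave -0.51 (first) and -0.43 (second). Without J_7135 it was -0.73 (unadjusted p = 0.0308, adjusted p = 0.464, edgeR).

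*Notch2* (ENSMUSG00000027878, chr3:98013527-98150361, plus strand), which acts beside *Notch1* in the crypt, varied among the β-catGOF; Mll1-/- mice with a coefficient of variation of 64.7%, where counting error alone gives 9.45%. It was at 7.32 CPM in J_7075, 11.3 in J_7096, 6.00 in J_7135 and 1.18 in J_7136, where only 18 counts were found. The β-catGOF; Mll1+/- libraries held 13.9 CPM in J_7079, 13.8 in J_7100, 9.79 in J_7134 and 5.75 in J_7139. First-run libraries were above second-run libraries in both genotypes. The fitted difference on the log2 scale was -0.74 with a standard error of 0.57 (95% interval -2.02 to 0.54, adjusted p = 0.741, edgeR), while the runs alone gave -0.58 and -1.28.

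*Notch3* (ENSMUSG00000038146, chr17:32120820-32166880, minus strand), a receptor best known from vascular smooth muscle and pericytes, had 131 counts or 7.09 CPM in J_7135 and stayed close to the floor elsewhere. The other β-catGOF; Mll1-/- libraries held 0.295 CPM in J_7075, 0.521 in J_7096 and 1.18 in J_7136. In β-catGOF; Mll1+/-, the level was 0.898 CPM in J_7079, 1.05 in J_7100, 0.401 in J_7134 and 0.452 in J_7139. The log2 fold change of 1.68, with a standard error of 0.97 (adjusted p = 0.648, edgeR), thus rested on 1 library, and without J_7135 it was -0.08 (adjusted p = 0.989, edgeR). The summed level of 8 mesenchymal markers was also highest in J_7135 at 6.06 CPM, against 1.27 to 3.09 CPM in the other β-catGOF; Mll1-/- libraries and 1.28 to 4.07 CPM in β-catGOF; Mll1+/-. In J_7135 this sum was mostly *Pdgfrb* at 5.84 CPM, whereas *Col3a1*, *Acta2*, *Rgs5* and *Des* were at 0 counts there. Of the 8 markers, 5 reached 10 counts in any library. The 7 endothelial markers together were at 4.52 to 6.76 CPM in β-catGOF; Mll1-/- and 5.29 to 6.64 CPM in β-catGOF; Mll1+/-. This sum was mostly *Pecam1*, at 3.95 to 5.91 CPM over the 8 libraries, and 3 of the 7 markers reached 10 counts in any library. The part of other cell types in the *Notch3* level was not tested.

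The balance of the receptors was read per length. TPM, the counts per exonic base scaled to a sum that is the same in every library, allows levels of different genes to be compared, and the share of each receptor in the summed TPM of *Notch1* to *Notch4* was computed for each library. *Notch2* was the most abundant receptor in 6 of 8 libraries, with a median share of 53.9% and a range of 16.7 to 66.6%. *Notch1* had a median share of 25.4% (17.6 to 35.5%) and led in J_7136. *Notch4*, which is known chiefly from endothelium, had a median share of 17.8% and led in J_7135 with 33.4%. *Notch3* made up 30.0% in J_7135 and 22.4% in J_7136 and at most 6.48% in each of the other 6 libraries. The libraries in which *Notch2* did not lead were thus the 2 β-catGOF; Mll1-/- libraries of the second run. In these, the summed receptor level was the highest of all 8 in J_7135, with 5.55 TPM, and the lowest in J_7136, with 1.02 TPM.

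**Figure D2:**
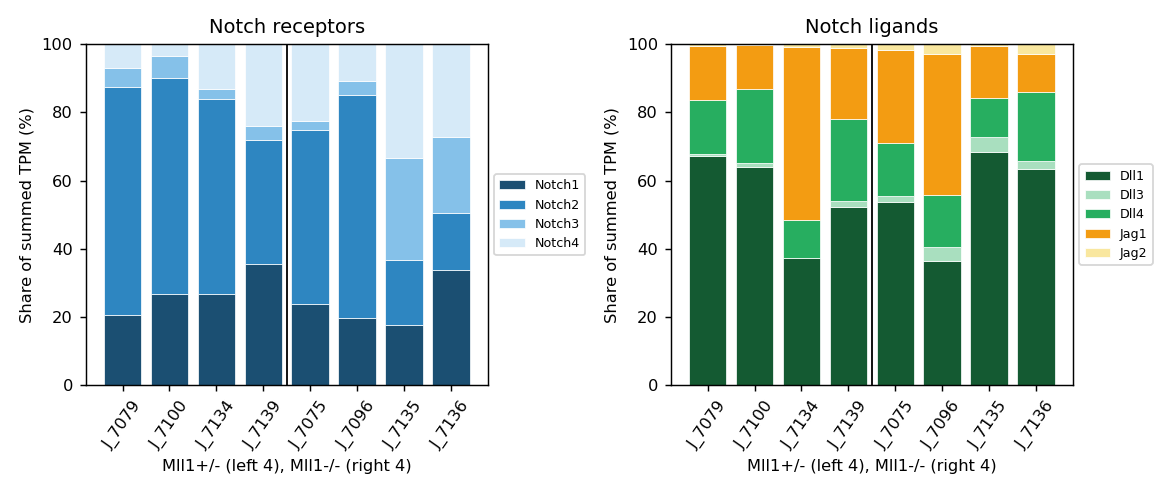
Share in percent of each receptor in the summed TPM of *Notch1* to *Notch4* (left) and of each ligand in the summed TPM of *Dll1*, *Dll3*, *Dll4*, *Jag1* and *Jag2* (right), 1 bar per mouse, with β-catGOF; Mll1+/- to the left of the black line and β-catGOF; Mll1-/- to its right. *Notch2* leads in 6 of 8 mice and *Dll1* in 6 of 8, and *Jag1* leads in J_7134 and J_7096.

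Summed over *Dll1*, *Dll3*, *Dll4*, *Jag1* and *Jag2*, the ligands reached 5.74 to 15.5 TPM, against 1.02 to 5.55 TPM for the 4 receptors. *Dll1* (ENSMUSG00000014773, chr17:15367354-15376872, minus strand), a Delta ligand of secretory progenitors, was at 16.8 CPM in J_7075, 8.80 in J_7096, 23.6 in J_7135 and 15.8 in J_7136. The β-catGOF; Mll1+/- libraries held 20.2 CPM in J_7079, 10.9 in J_7100, 8.90 in J_7134 and 17.4 in J_7139. High and low libraries were found in both genotypes, and the groups overlapped over most of their range. Its log2 fold change of 0.18, with a standard error of 0.36 (95% interval -0.62 to 0.98, adjusted p = 0.918, edgeR), became -0.06 without J_7135 (adjusted p = 0.984, edgeR). Overlapping genes also touch *Notch1* (9.76% of exonic bases), *Notch3* (6.07%), *Dll4* (5.56%) and *Notch2* (5.02%). An antisense gene, *A930024N18Rik*, covers 20.6% of the exonic bases of *Dll1*, and since the strand was not used in counting, reads of the pair cannot be assigned with certainty there.

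*Dll4* (ENSMUSG00000027314, chr2:119325784-119335962, plus strand), the second Delta ligand of the crypt, was the most even of the 10 genes among the β-catGOF; Mll1-/- mice. It was at 4.48 CPM in J_7075, 3.36 in J_7096, 3.57 in J_7135 and 4.53 in J_7136, a coefficient of variation of 15.3% where counting error alone gives 12.2%. In β-catGOF; Mll1+/-, the values were 4.37 CPM in J_7079, 3.37 in J_7100, 2.41 in J_7134 and 7.30 in J_7139. The second group thus held both the lowest and the highest value of *Dll4*. Between the genotypes the log2 fold change was -0.13 with a standard error of 0.39 (95% interval -1.01 to 0.74, adjusted p = 0.950, edgeR), and without J_7139 it was 0.23.

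*Jag1* (ENSMUSG00000027276, chr2:137081456-137116644, minus strand), the main Jagged ligand, gave a log2 fold change of 0.04 with a standard error of 0.54 (95% interval -1.17 to 1.25, adjusted p = 0.988, edgeR), behind which the 2 library runs went in opposite directions. In the first run, it was at 11.7 CPM in J_7075 and 13.8 in J_7096 of β-catGOF; Mll1-/- and at 6.58 CPM in J_7079 and 3.02 in J_7100 of β-catGOF; Mll1+/-. In the second run, it was at 7.30 CPM in J_7135 and 3.87 in J_7136 of β-catGOF; Mll1-/- and at 16.7 CPM in J_7134 and 9.43 in J_7139 of β-catGOF; Mll1+/-. Both β-catGOF; Mll1-/- libraries were therefore above both controls in the first run, by 1.40 on the log2 scale, and below both in the second, with a difference of -1.16. *Jag1* was also higher in J_7075, J_7096 and J_7134, where Y-linked transcripts exceeded *Xist*, than in each other library. For this reversal, run and sex transcripts cannot be told apart, and the part of sex was not tested. An interaction of genotype and run, chosen after these values had been seen, was -2.62 with a standard error of 0.76 (unadjusted p = 0.0101, adjusted p = 0.671, edgeR). *Notch3* showed the opposite order, with -0.71 and 1.95 in the runs and an interaction of 4.49 with a standard error of 1.35 (unadjusted p = 0.0123, adjusted p = 0.671, edgeR), which includes J_7135. These 2 of the 10 genes had an unadjusted interaction p under 0.05, as did 1128 of the 16445 genes or 6.86%, and 0 genes (0.0%) had an adjusted p under 0.1 (edgeR).

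**Figure D3:**
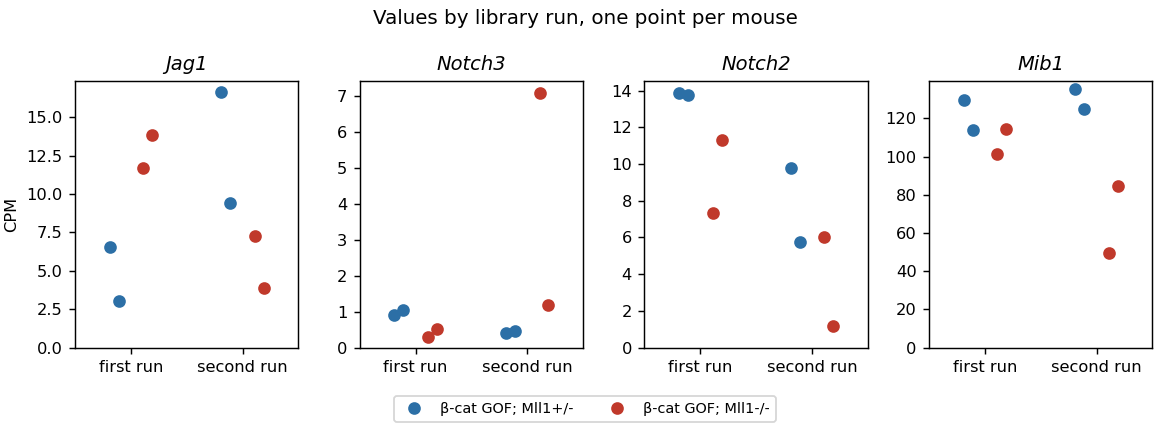
CPM of *Jag1*, *Notch3*, *Notch2* and *Mib1* by library run on linear axes that start at 0, with 1 point per mouse, blue for β-catGOF; Mll1+/- and red for β-catGOF; Mll1-/-. The red points of *Jag1* lie above the blue ones in the first run and below them in the second, and for *Mib1* both red points of the second run, 49.4 and 84.7 CPM, lie below all others.

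*Jag2* (ENSMUSG00000002799, chr12:112907819-112929776, minus strand), the second Jagged ligand, was barely detected. It had 16, 20, 5 and 18 counts in J_7075, J_7096, J_7135 and J_7136 and 5, 1, 4 and 11 counts in J_7079, J_7100, J_7134 and J_7139. The CPM were 0.270 to 1.18 in the first group and 0.0703 to 0.710 in the second, so that 1 control library lay below its floor of 3 counts. Its log2 fold change was 1.31 with a standard error of 0.72 (95% interval -0.31 to 2.94, adjusted p = 0.631, edgeR).

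Across the ligands, *Dll1* held the largest share of the summed ligand TPM in 6 of 8 libraries, with a median of 58.6%. *Jag1* led in the other 2, J_7096 with 41.4% and J_7134 with 50.7%, 1 mouse of each genotype. *Dll4* took 11.1 to 24.1%, and *Jag2* and *Dll3* stayed at or below 2.90% and 4.41%.

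*Lfng* (ENSMUSG00000029570, chr5:140607320-140615545, plus strand) encodes the Fringe glycosyltransferase that modifies Notch receptors and favours their response to Delta over Jagged ligands. It was at 1.00 CPM in J_7075, 1.27 in J_7096, 2.27 in J_7135 and 4.40 in J_7136. The β-catGOF; Mll1+/- libraries held 2.93 CPM in J_7079, 2.04 in J_7100, 3.93 in J_7134 and 1.48 in J_7139. The lowest values, J_7075 and J_7096, and the highest value, J_7136, all belonged to β-catGOF; Mll1-/-. Its log2 fold change was -0.21 with a standard error of 0.56 (95% interval -1.47 to 1.04, adjusted p = 0.942, edgeR), and the runs gave -0.85 and 0.31.

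*Rbpj* (ENSMUSG00000039191, chr5:53466152-53657362, plus strand), the DNA-binding protein through which all 4 receptors act, was among the steadiest of the 10 genes. In β-catGOF; Mll1-/-, it was at 19.1 CPM in J_7075, 21.1 in J_7096, 19.5 in J_7135 and 9.65 in J_7136. In β-catGOF; Mll1+/-, it was at 21.2 CPM in J_7079, 25.7 in J_7100, 15.6 in J_7134 and 17.8 in J_7139. A single library, J_7136, stood below the others. The other 3 β-catGOF; Mll1-/- libraries had a mean of 19.9 CPM, against a mean of 20.1 CPM in β-catGOF; Mll1+/-. The log2 fold change was -0.21 with a standard error of 0.28 (95% interval -0.84 to 0.42, adjusted p = 0.866, edgeR), with -0.21 and -0.27 in the 2 runs. Of the 31-base words of its transcripts, 11.8% also occur in other genes, mostly the pseudogenes *Rbpj-ps3* and *Rbpj-ps1*, so a part of its count is uncertain.

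Rbpj binds the core TGGGAA, which is TTCCCA on the other strand, and the promoter windows of RefSeq (GRCm38.p6, 250 bases before to 50 after an annotated transcript start) were searched for it on both strands. Windows were found for 9 of the 10 genes, 11 in all. The core was present in 3 of the 11 windows, in 2 genes, *Lfng* and *Rbpj*, which is close to the share of 25.4% over all 32544 windows. The 2 windows of *Rbpj* overlap and share the TTCCCA match. Among the member windows, that of *Lfng* and the first of *Rbpj* held 2 matches. Across all windows, 2 or more matches occurred in 3.8%. Not every searched target window held the core. Those of *Nrarp* and *Hes6* held none, and that of *Olfm4* held 1. The windows with 2 matches are shown because they hold the binding letters of one member around transcript starts of a modifier and of that member itself, next to *Hes5*, a classical target of the pathway. Each is printed 5′ to 3′ on the plus strand, which is the strand of all 3 genes, with the core or its reverse complement in capitals.
Lfng, chr5:140607091-140607390: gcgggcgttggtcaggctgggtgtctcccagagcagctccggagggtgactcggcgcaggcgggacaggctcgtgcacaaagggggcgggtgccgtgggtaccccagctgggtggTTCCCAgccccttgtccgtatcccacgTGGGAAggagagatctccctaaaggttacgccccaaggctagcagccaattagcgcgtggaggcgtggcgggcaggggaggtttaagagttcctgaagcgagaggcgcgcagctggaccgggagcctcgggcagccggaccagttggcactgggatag
Rbpj, chr5:53590096-53590395: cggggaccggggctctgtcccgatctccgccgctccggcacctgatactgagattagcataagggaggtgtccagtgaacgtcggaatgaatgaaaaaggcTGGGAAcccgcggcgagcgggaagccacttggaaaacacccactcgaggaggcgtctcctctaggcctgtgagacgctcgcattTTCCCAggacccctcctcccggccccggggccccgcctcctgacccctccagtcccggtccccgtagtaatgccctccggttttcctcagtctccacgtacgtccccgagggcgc
Hes5, chr4:154960673-154960972: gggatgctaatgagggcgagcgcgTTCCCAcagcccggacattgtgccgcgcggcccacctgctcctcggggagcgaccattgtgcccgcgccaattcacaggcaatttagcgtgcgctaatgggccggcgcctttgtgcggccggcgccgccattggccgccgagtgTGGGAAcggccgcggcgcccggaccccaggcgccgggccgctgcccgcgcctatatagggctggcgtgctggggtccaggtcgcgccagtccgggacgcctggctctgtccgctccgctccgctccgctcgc
The matches begin at -135 and -108 in *Lfng*, at -149 and -65 in *Rbpj* and at -226 and -82 in *Hes5*, counted from the transcript start of each window. The *Rbpj* window belongs to an internal start that lies well inside the gene as the count table delimits it, not at its first base. The longer form GTGGGAA, found in 6.39% of all windows, occurs once in *Lfng* and on both strands in *Hes5*. No member window held the TCF motif CTTTGAT, which 3.73% of all windows hold. The CpG count of the member windows was 15 to 63 with a median of 24, whereas all windows had a median of 7. These matches describe the letters of the windows and no binding was measured here.

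*Mib1* (ENSMUSG00000024294, chromosome 18, plus strand), the ubiquitin ligase that lets ligand-bearing cells internalise Delta and Jagged and so activate the receptor next door, had the highest count of the 10 genes and the smallest counting error. In β-catGOF; Mll1-/-, it was at 101 CPM in J_7075, 114 in J_7096, 49.4 in J_7135 and 84.7 in J_7136. In β-catGOF; Mll1+/-, it was at 130 CPM in J_7079, 114 in J_7100, 135 in J_7134 and 125 in J_7139. The controls lay close together, with a coefficient of variation of 7.24%, while the β-catGOF; Mll1-/- mice varied by 32.2%, and the groups overlapped only through J_7096 and J_7100. The log2 fold change was -0.53 with a standard error of 0.23 (95% interval -1.04 to -0.01, unadjusted p = 0.0467, adjusted p = 0.540, edgeR), which is 0.695 times the control level and does not pass the threshold. Within the first run the difference was -0.17, and the second run alone gave -1.002. Without J_7135 the log2 fold change was -0.33 (unadjusted p = 0.0411, adjusted p = 0.518, edgeR).

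**Figure D4:**
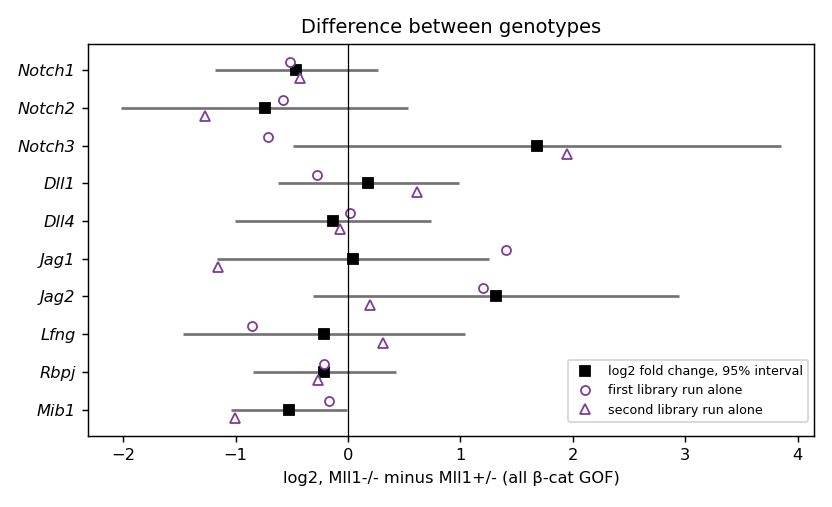
Log2 fold change of β-catGOF; Mll1-/- over β-catGOF; Mll1+/- (squares) with its 95% interval from edgeR, and the difference of mean log2 CPM within the first (circles) and second (triangles) library run alone. The interval of *Mib1*, -1.04 to -0.01, ends just below 0, the other 9 include 0, and the runs lie on opposite sides of 0 for *Notch3*, *Dll1*, *Dll4*, *Jag1* and *Lfng*.

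Per length, the order of the 10 genes over all 8 libraries was led by *Mib1* with a median of 17.6 TPM (9.00 to 19.9), which was above 74.3% of the tested genes. *Dll1* followed with 6.17 TPM (2.76 to 10.6), above 51.3% of the tested genes, and was higher than *Rbpj*, at 2.71 TPM, in 8 of 8 libraries. This order rests on the length used, all annotated exonic bases of a gene, which is 4219 for *Dll1* and 12750 for *Rbpj*. In CPM, not divided by length, the mean over the 8 libraries was 15.3 for *Dll1* and 18.7 for *Rbpj*. *Rbpj*, *Jag1* (2.47 TPM), *Dll4* (1.78), *Lfng* (1.44) and *Notch2* (1.22) formed a group in which each gene exceeded the next in only 4 or 5 of 8 libraries, so these neighbours did not differ beyond their spread. *Notch2* was above *Notch1* (0.613 TPM) in 7 of 8 libraries, and *Notch1* above *Notch3* (0.144 TPM) in 7 of 8. *Notch3* and *Jag2* (0.118 TPM) came last, each above the other in 4 of 8 libraries. The ranges of all neighbours in this order overlapped. The medians of both Delta ligands were above those of every receptor. For *Dll4* (0.818 to 3.02 TPM) and *Notch2* (0.170 to 2.05 TPM), however, the ranges overlapped widely. In bulk libraries fewer expressing cells and less RNA per cell cannot be told apart.

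**Figure D5:**
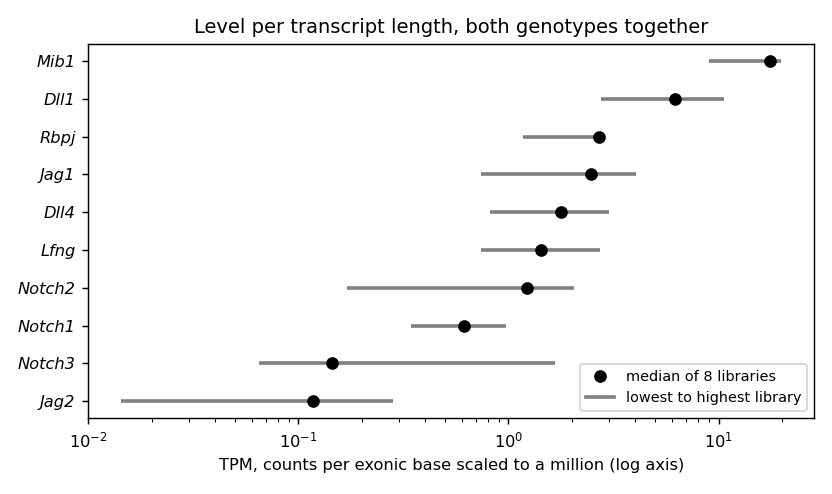
Median TPM of the 10 genes over the 8 libraries (points) and the lowest to highest library (bars) on a log axis, both genotypes together. The medians run from 17.6 TPM for *Mib1* to 0.118 TPM for *Jag2*.

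The genes whose log2 CPM followed *Notch1* most closely over the 8 libraries, among 8914 genes with a mean of at least 10 CPM, were *Chchd3* (Pearson r = 0.961), *Golim4* (r = 0.959) and *Akap7* (r = 0.951). For *Dll1* these were *Zfp369* (r = 0.963), *Klhl22* (r = 0.938) and *Plek2* (r = 0.936). These values are the highest of many over 8 libraries that share genotype, run and depth, and are given as a description.

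A list of 86 other genes of the pathway was read in the same fit, of which 66 passed the filter. In edgeR 0 of the 66 had an adjusted p under 0.1, while 8 were higher and 2 lower in β-catGOF; Mll1-/- at an unadjusted p under 0.05, against 5.4% and 3.75% of all genes. Without J_7135, 8 in all reached this level. DESeq2 called 6 of the 66 and limma-voom 1, where they called 2.47% and 0.626% of all genes. The DESeq2 calls were *Fbxw7*, *Atoh1*, *Ccnd1*, *Olfm4*, *Spdef* and *Cdkn1a*, and limma-voom called *Olfm4*. The authors had already reported *Atoh1*, *Spdef* and *Olfm4* as changed in these cells. Since the list was chosen with earlier results of these data known, these counts are no test of the pathway. The median log2 fold change was 0.13, with 40 genes above and 26 below 0. In the machinery that acts on the ligand and receptor proteins at the membrane, no gene reached an unadjusted p under 0.05 among 5 tested glycosyltransferases, led in level by *Poglut1* (median 8.28 TPM), or among 9 proteases and γ-secretase subunits, led by *Adam10* (25.3 TPM), which makes the first cut in Notch. *Notch4*, the only further receptor or ligand tested, was at 7.90 CPM in J_7135 and at 1.39 to 2.42 CPM in the other 3 β-catGOF; Mll1-/- libraries, against 0.562 to 2.84 CPM in β-catGOF; Mll1+/-.

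Among 15 genes of trafficking and turnover, led by the ubiquitin ligase *Nedd4* (59.99 TPM), 3 were higher in β-catGOF; Mll1-/- at an unadjusted p under 0.05 and 0 lower, though none passed the adjustment. *Numb*, an endocytic inhibitor of Notch, was at 25.2 to 43.3 CPM against 18.4 to 22.7 CPM, a log2 fold change of 0.59 with a standard error of 0.22 (adjusted p = 0.481, edgeR). *Fbxw7*, which marks the Notch intracellular domain for degradation, was at 16.2 to 24.5 CPM against 11.2 to 13.4 CPM, a log2 fold change of 0.73 with a standard error of 0.21 (adjusted p = 0.352, edgeR), and DESeq2 called it (adjusted p = 0.0479). *Dtx2*, a Deltex ubiquitin ligase, had means of 4.87 ± 1.95 and 2.47 ± 0.648 CPM (SD, n = 4) and overlapped between the genotypes. For *Numb* and *Fbxw7* the genotypes did not overlap, as in 3 of these 15 genes, 9 of the 66 pathway genes tested and 6.28% of all genes. The highest *Numb* value, 43.3 CPM, was that of J_7135, without which the log2 fold change was 0.38 (unadjusted p = 0.0511, adjusted p = 0.553, edgeR). Without J_7135, *Dtx2* also missed an unadjusted p of 0.05 (0.0953, edgeR), whereas *Fbxw7* was at 0.80 (unadjusted p = 0.00387, adjusted p = 0.220, edgeR).

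In the nucleus, 0 of 8 coactivators reached an unadjusted p under 0.05, with *Snw1* the most abundant at 19.5 TPM, though 44.3% of its exonic bases overlap the antisense gene *Slirp*. Of 15 corepressor genes, led by *Hdac2* (42.9 TPM), 1 did, *L3mbtl3*, a partner of Rbpj, whose log2 fold change was -0.52 with a standard error of 0.23 (adjusted p = 0.539, edgeR). Without J_7135 it was -0.53 (unadjusted p = 0.0584, edgeR).

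Of 16 listed targets, 7 were tested, since *Hes5*, *Hey1* and *Nrarp* had 51, 27 and 53 counts over the 8 libraries together. *Hes1*, the main Notch target in the crypt, was at 585 to 884 CPM in β-catGOF; Mll1-/- and 528 to 632 CPM in β-catGOF; Mll1+/-, and its log2 fold change was 0.25 with a standard error of 0.13 (95% interval -0.05 to 0.56, adjusted p = 0.616, edgeR). The stem cell gene *Olfm4*, the most abundant listed gene at 8867 TPM, was at 8080 to 14429 CPM against 19281 to 22949 CPM, with a log2 fold change of -0.77 and a standard error of 0.17 (adjusted p = 0.200, edgeR, 0.00573 in DESeq2 and 0.0571 in limma-voom). *Hes6*, an antagonist of *Hes1*, the D cyclin *Ccnd1* and the cell cycle inhibitor *Cdkn1a* were higher at an unadjusted p under 0.05, with log2 fold changes of 1.15, 0.62 and 1.05 (adjusted p = 0.482, 0.365 and 0.417, edgeR), and DESeq2 called the last 2. *Hes6* was at 198 CPM in J_7135 and at 44.4 to 75.8 CPM in the other 3 β-catGOF; Mll1-/- libraries, and without J_7135 its log2 fold change was 0.53 (unadjusted p = 0.0593, adjusted p = 0.582, edgeR). The tested targets had no common sign, with 4 above and 3 below 0. Antisense genes cover 23.4% of the exonic bases of *Ccnd1*, 54.6% of *Sox4* and 79.4% of *Nrarp*, so their counts are uncertain. Of the 6 regulators of the secretory lineage, the one with the highest level was *Sox4* at 13.6 TPM, and *Atoh1* and *Spdef* were higher at an unadjusted p under 0.05, with log2 fold changes of 2.24 and 2.41 (adjusted p = 0.429 and 0.205, edgeR), DESeq2 calling both. *Atoh1* and *Spdef* were both highest in J_7135, at 39.3 and 15.1 CPM. Leaving out this mouse gave log2 fold changes of 1.77 and 1.84 (unadjusted p = 0.0314 and 0.00212, adjusted p = 0.468 and 0.174, edgeR). Run by run, *Atoh1* differed by 0.38 and 3.67 on this scale. First-run libraries held 6.02 and 9.56 CPM in β-catGOF; Mll1-/- and 5.92 and 5.55 CPM in β-catGOF; Mll1+/-. Second-run libraries held 39.3 and 31.1 CPM against 5.88 CPM in J_7139 and 0.722 CPM, or 9 counts, in J_7134. Goblet cell markers summed to 638 to 1155 CPM in β-catGOF; Mll1-/- and 594 to 785 CPM in β-catGOF; Mll1+/-, and Paneth cell markers to 1329 to 2540 and 1964 to 4740 CPM. The lists did not move as a whole. Among the goblet markers, *Zg16* and *Spink4* were lower (log2 fold changes -4.03 and -0.54) and the rest higher. Among the Paneth markers, *Mmp7* was higher (1.04) and the rest lower, and *Defa24* was the largest part of the sum. No gene of either list had an adjusted p under 0.1 (edgeR). The part of these cell types in the pathway values was not tested.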

How the data were processed

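Smart-seq2 libraries of 8 mice (4 per genotype) carry no molecular identifiers. According to the labels and methods, the authors aligned reads to mm10 with GSNAP and counted them on Ensembl release 92 with featureCounts 1.6.3, without strand and at a mapping quality of at least 1. They deposited these raw counts, with 92 spike-in entries left out here, and a table of signal, the counts divided by the library's size factor from DESeq2 1.22.2, used here only to find the genes. The deposited tables also give gene length as other columns. The 10 genes and the lists were chosen with earlier results of these data known. Counts were passed through filterByExpr (minimum count 10, minimum total 15), scaled with TMM and fitted by genotype in edgeR 4.0.16 (robust quasi-likelihood, R 4.3.3), with Benjamini-Hochberg adjustment over 16445 genes and a threshold of 0.1. The common biological coefficient of variation was 0.435. Standard errors came from the F statistic. Within-run differences are of mean log2(CPM + 0.5). The fits were also run on simulated counts without a run effect or a library that stood apart, and no result here rests on that outcome. Alternatives were DESeq2 1.42.0, limma-voom (limma 3.58.1) with quality weights, other scalings and filters, a block of the 2 library runs and each library left out. The interaction of genotype and run was added after seeing the data. Named genes were the 10, the pathway genes with an unadjusted p under 0.05 or the highest median TPM of their role, *Hes1*, *Hes5*, *Hey1*, *Nrarp*, *Atoh1*, *Kmt2a* and the 3 genes most correlated with *Notch1* and *Dll1*. Nothing shows whether mice of a genotype were littermates. Figures were drawn with matplotlib 3.10.9.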

Additional observations from a re-analysis of the deposited data

Results flagged for a closer look

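In *Notch3*, mouse J_7135 lay far above the other 3 β-catGOF; Mll1-/- mice, at 7.09 CPM, with a gap to the next mouse of 0.869 of the group's range, above Dixon's 95% critical value for 4 samples. This was 1 of 20 groups examined, and chance alone gives about 1 in 20.

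Spike-in transcripts, which the comparisons do not use, had 36 counts in J_7100 and 0 to 2 in each of the other 7 libraries.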

How the results depend on the processing

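None of the 10 genes passed an adjusted p of 0.1 under any alternative, including both scalings, both filters, DESeq2, limma-voom, the block of library runs and each library left out. At an unadjusted p under 0.05, *Mib1* passed in edgeR and DESeq2, not in limma-voom, and in 0 of the 4 fits that left out a β-catGOF; Mll1+/- library nor in that without J_7136. *Notch1* passed in limma-voom and without J_7135, and *Jag2* in limma-voom. *Notch3* and *Jag2* were not tested with at least 10 counts required in every library. In limma-voom the log2 fold change was -0.31 for *Notch3* and -0.094 for *Dll1*, opposite to edgeR. With each library left out, it ranged from -0.084 to 2.04 for *Notch3*, -0.059 to 0.39 for *Dll1*, -0.33 to 0.23 for *Dll4*, -0.24 to 0.53 for *Jag1* and -0.77 to 0.053 for *Lfng*, and the other 5 genes kept their sign. Of the other pathway genes, DESeq2 called 6 and limma-voom 1, against 0 in edgeR. Over all genes, 14 calls became 47 with no filter, 34 with at least 10 counts in every library, 406 in DESeq2, 103 in limma-voom and 0 with the run as a block, and 0 to 45 with each library left out, with 45 without J_7135, 2 without J_7075 and 0 without any other. The cause was not tested. The order of levels was the same with RPKM and with the length from the normalised table, but neither is a separate check. RPKM rescales each library as a whole, and the lengths of both tables are equal for all 25485 genes of the normalised table. No paired analysis was possible because the labels give no numbers shared between genotypes. *Jag2* had 1 to 20 counts per library, and *Notch3* 5 to 18 outside J_7135.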
